A study of Saccharomyces cerevisiae with 12 samples.

Results

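The strain by limitation interaction asks which genes depended on the transcription factor Leu3 differently when nitrogen rather than carbon limited growth of the yeast Saccharomyces cerevisiae. For each gene it is the log2 difference between a leu3 deletion strain and its reference strain under nitrogen limitation, minus the same difference under carbon limitation. The difference within 1 limitation is called the strain effect here, always deletion minus reference. An interaction above 0 means that the deletion strain stood higher, relative to the reference, under nitrogen limitation than under carbon limitation, and a value below 0 means the reverse. The contrast needs every group of the series, so all 12 of the 12 arrays entered it, and it was read for probe sets assigned to exactly 1 gene.

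The arrays fell into 4 groups of 3, from 2 haploid, prototrophic strains grown in chemostats under 2 limitations. The deletion strain was CEN.PK540-3A, a MATa strain in which leu3 was deleted from 41 to 2621 and carried loxP-Kan-loxP in its place. The reference was CEN.PK113-7D, MATa LEU3. All cultures grew at 30 °C and pH 5.0 with a dilution rate of 0.10 per h, so growth rate was the same by design. In carbon-limited (C-lim) medium ammonium sulfate was at 5.0 g/l and ethanol, the carbon source, at 6.0 g/l. Nitrogen-limited (N-lim) medium held 1.0 g/l ammonium sulfate, 5.3 g/l potassium sulfate and glucose in excess, fed at 59 g/l to the reference and 53 g/l to the deletion strain to leave about 17 g/l. The limiting nutrient and the carbon source therefore changed together and cannot be told apart in the interaction. The labels do not say whether the 3 samples of a group came from separate cultures, so p-values measure the spread between these samples, which may be technical, and the deletion is represented by a single strain.

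Leu3 is a zinc cluster protein that binds upstream of genes for leucine, isoleucine and valine synthesis. It is unusual in that a pathway intermediate decides what it does: with alpha-isopropylmalate, the product of the synthases Leu4 and Leu9, it activates its targets, and without it Leu3 sits on the same sites as a repressor. Leucine inhibits Leu4, so the activity of Leu3 follows leucine supply, and many of its targets also answer to Gcn4, the general activator of amino acid synthesis.

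The 3'/5' signal ratio of actin, which rises when labelled transcripts are shorter, lay between 1.54 and 1.91 on the deletion arrays and between 2.45 and 13.98 on the reference arrays, with the highest values, 9.27 and 13.98, on carbon-limited reference arrays 2 and 3. On nitrogen-limited reference arrays 2 and 3 the bacterial control ThrX-3 gave 3094.8 and 2747.7, against at most 1.6 on the other 10 arrays. Interactions are therefore also given without either pair of arrays and with the actin ratio as a term. They are given mainly for called genes, where they end a call or move a value by over 1.5 times. Values of other genes, such as LEU1, were not all stable under these fits. Leaving out a pair leaves that reference group 1 array, assumed to vary like the other groups. The carbon-limited reference in fact varied most, with a median SD of 0.249 on the log2 scale against 0.148 to 0.18. Its remaining array 1 had a limma array weight (lower for arrays that deviate more) of 0.368, against 0.953 for array 2 and 0.332 for array 3. Because the actin ratio itself differed between strains, the term and the strain cannot be fully told apart. The same ratio for SPT15 was also highest on carbon-limited reference arrays 2 and 3, at 8.08 and 10.05. It was 3.64 on array 1 of that group and 2.56 to 2.93 on the carbon-limited deletion arrays. Under nitrogen limitation it did not separate the strains, at 3.31 to 4.09 on deletion and 3.42 to 3.68 on reference arrays. All 7 a-cell specific genes were detected above the floor of 12 on all 12 arrays. Of 4 alpha-cell specific genes, MF(ALPHA)2 stayed below 12 on every array, MF(ALPHA)1 and SAG1 were above it on every array, and STE3 was above it except on the 3 nitrogen-limited deletion arrays.

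The strain effect differed between the limitations for a minority of genes. Of 5321 genes tested, 976 (18.3%) passed in the interaction at a limma adjusted p under 0.05, 279 above 0 (5.24%) and 697 below 0 (13.1%). The interaction reached at least 2-fold for 443 of them, 148 above 0 and 295 below 0. The smallest value that passed was 0.55 on the log2 scale, and the median standard error was 0.25. Most calls had a strain effect past the threshold under 1 limitation and not under the other: 354 genes (6.65%) under nitrogen limitation alone and 441 (8.29%) under carbon limitation alone. A further 84 genes (1.58%) changed in opposite directions, 27 (0.507%) changed in the same direction to different extents, and 70 (1.32%) passed in the interaction with neither strain effect past the threshold. The 3 deletion and 3 reference arrays of a gene did not overlap under nitrogen limitation for 43.6% of all genes and under carbon limitation for 39.6%. Taken singly, 1181 genes (22.2%) passed in the strain effect under nitrogen limitation and 1494 (28.1%) under carbon limitation.

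The excess of values below 0 depended on how the arrays were scaled. The median interaction of all genes was -0.20 on the deposited scale, from a median strain effect of -0.11 under nitrogen limitation and 0.05 under carbon limitation. Centring every array on its median moved the all-gene median to 0.11 and turned the split to 614 above 0 and 241 below 0 among 855 passing genes, so that the share of calls above 0 went from 28.6% to 71.8%. Without the centring, values near -0.20 are those of a typical gene, and the gene groups below are read against that median.

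**Figure D1:**
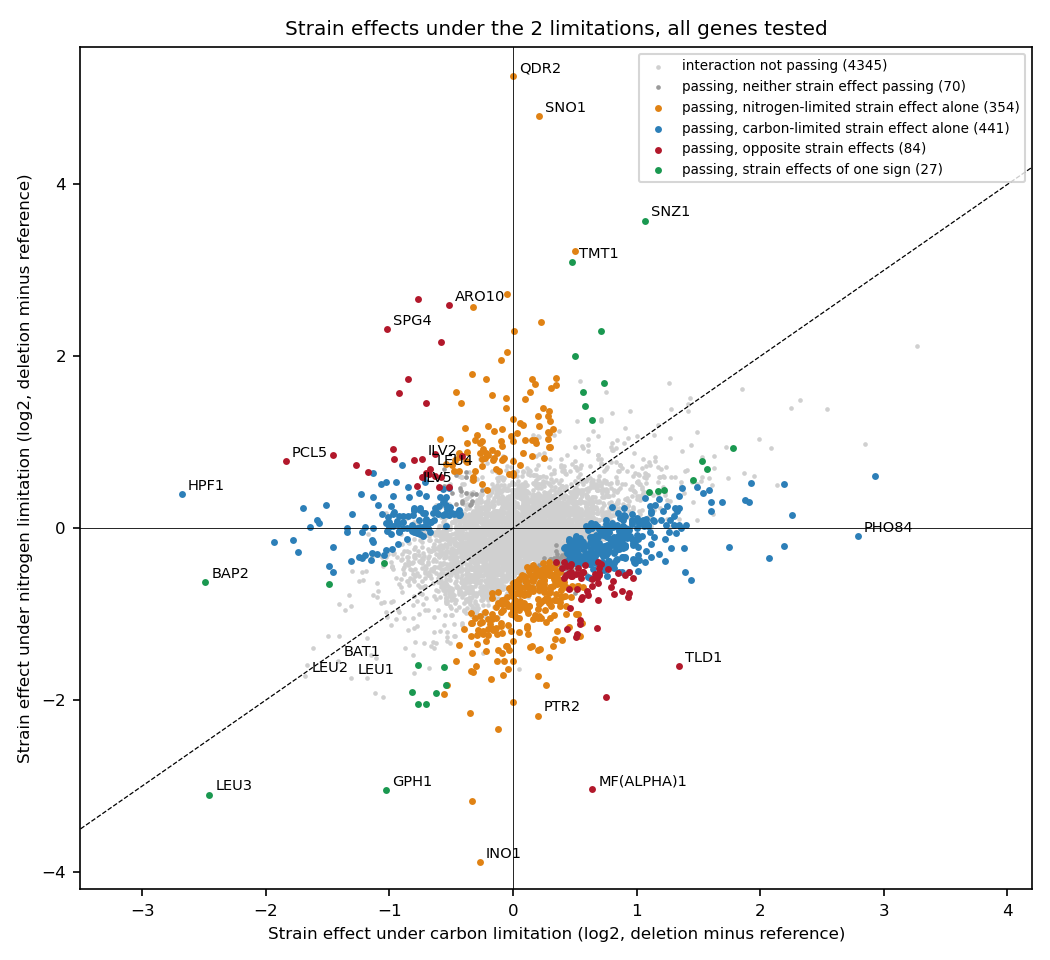
Strain effect (log2, deletion minus reference) of each of the 5321 genes tested under carbon limitation, on the horizontal axis, and under nitrogen limitation, on the vertical axis. Colours mark the 5 patterns among the 976 genes that passed in the interaction, and the dashed line marks equal strain effects, near which LEU1, LEU2 and BAT1 lie.

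LEU3 itself (YLR451W, chromosome XII) checks the labels. Its signal was 0.3 to 0.6 on all 6 deletion arrays. The reference arrays gave 110.4, 96.3 and 101.4 under nitrogen limitation and 76.7, 62.4 and 59.9 under carbon limitation. The deletion arrays were thus all set to the floor of 12, and the interaction of -0.64 ± 0.19 (standard error, limma adjusted p = 0.0303) records that the reference strain held more LEU3 signal under nitrogen limitation. It did not pass in 14 of the 24 alternative settings, among them each of the fits with the actin ratio as a term (-0.40) and without carbon-limited reference arrays 2 and 3 (-0.42).

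The genes of the branched-chain pathway went different ways, and not strictly by step: under nitrogen limitation BAT2 rose where BAT1 fell. ILV1 and ILV6 did not pass in the interaction. The ILV6 value of 1.06 was nevertheless near those of ILV3 (1.17) and ILV5 (1.27), with a wide interval, so a difference from ILV2 is not shown. ILV2, ILV5, ILV3 and LEU4, for steps before alpha-isopropylmalate or for its synthesis, were higher in the deletion strain under nitrogen limitation and lower under carbon limitation. LEU1 and LEU2, for the steps after it, and BAT1 fell under both limitations and did not pass in the interaction. Of the 11 branched-chain enzyme genes, 6 passed above 0 and none below 0, with 5 not passing, and their median was 1.06 against -0.20 for all genes. The 6 classical Leu3 targets (ILV2, ILV5, LEU1, LEU2, LEU4 and GDH1) had 3 members above 0, none below 0 and a median of 0.90. The direction of both medians was the same under quantile normalization (1.02 and 0.60) and after centring (1.36 and 1.20).

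ILV2 and ILV6 encode the catalytic and the regulatory subunit of acetolactate synthase, the first enzyme shared by the isoleucine and valine branches. Under nitrogen limitation ILV2 signal was 422.8, 506.3 and 440.2 in the reference and 719.1, 840.2 and 820.1 in the deletion strain. Under carbon limitation it was 672.8, 681.2 and 546.7 in the reference and 375.4, 348.4 and 410.7 in the deletion strain. The strains did not overlap under either limitation, and the order turned. The strain effects of 0.80 and -0.74 gave an interaction of 1.54 ± 0.20 (limma adjusted p = 2.74e-04), which passed in all 24 alternative settings. ILV6 signal, by contrast, varied widely between reference arrays, from 304.5 to 702.2 under nitrogen limitation and from 789.6 to 1710.2 under carbon limitation. Its interaction of 1.06 ± 0.43 did not pass (adjusted p = 0.1, 95% interval 0.14 to 1.98), but it passed after median centring (1.36) and with array weights (1.07).

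ILV5 and ILV3 encode the next enzymes, acetohydroxyacid reductoisomerase and dihydroxyacid dehydratase. ILV5 stood at 1164.4, 1168.2 and 1271.5 in the nitrogen-limited reference and at 1787.4, 1475.3 and 1814.7 in the deletion strain. With carbon limiting, it stood at 2380.7, 2094 and 1588.4 in the reference and at 1068.6, 1129.3 and 1300.7 in the deletion strain. All deletion arrays were above the reference under nitrogen limitation and below it under carbon limitation. ILV3 showed the same arrangement, with 866.1 to 888 against 1276.2 to 1373 under nitrogen limitation and 872.7 to 917.3 against 516.1 to 747.3 under carbon limitation. The interactions were 1.27 ± 0.23 for ILV5 and 1.17 ± 0.21 for ILV3 (limma adjusted p = 0.00244 and 0.00196). In the nitrogen-limited reference ILV3 varied by little, while its carbon-limited deletion arrays were the widest of the 4 groups.

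LEU4 and LEU9 encode the alpha-isopropylmalate synthases, whose product is the co-activator of Leu3. LEU4 signal was 1024, 902.6 and 952.9 in the nitrogen-limited reference and 1419.7, 1729 and 1498.6 in the deletion strain. In the carbon-limited reference it was much higher, at 2808.3, 3450 and 3620.6, and the deletion strain stood at 2229.3, 1986.1 and 1970.7. The strain effects of 0.69 and -0.67 were of about equal size and opposite sign, with an interaction of 1.36 ± 0.20 (limma adjusted p = 5.71e-04). LEU9 rose under nitrogen limitation by 0.99 ± 0.17 (adjusted p = 9.87e-04), and its strain effect of -0.37 under carbon limitation did not pass. Its interaction was 1.36 ± 0.25 (adjusted p = 0.00244).

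The interaction calls of ILV2, ILV3, ILV5, LEU4 and LEU9 held in all 24 alternative settings, but the separate strain effects behind them were less firm. Without carbon-limited reference arrays 2 and 3, the carbon-limited effects of LEU4 (-0.45) and ILV3 (-0.54) no longer passed, while those of ILV2 (-0.83) and ILV5 (-1.03) did. With the actin ratio as a term, none of the 4 carbon-limited effects passed (adjusted p = 0.0573 to 0.577), and the nitrogen-limited effect of ILV5 (0.36) did not pass either. Without nitrogen-limited reference arrays 2 and 3, the nitrogen-limited effects of ILV5 (0.53), ILV3 (0.60) and LEU4 (0.59) did not pass. The nitrogen-limited effect of ILV5 did not pass in 11 of the 24 settings, and the carbon-limited effect of LEU4 was -0.33 (adjusted p = 0.0826) after quantile normalization.

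LEU1 and LEU2 encode isopropylmalate isomerase and isopropylmalate dehydrogenase, which act on alpha-isopropylmalate and its isomer. LEU1 read 682.1, 623.1 and 594.2 in the nitrogen-limited reference and 195.5, 174.6 and 200.5 in the deletion strain, and 976.4, 893.2 and 629 against 298.2, 396.4 and 306.7 under carbon limitation. LEU2 read 1598.8, 1347.9 and 1678.9 against 449.9, 505 and 444.9 under nitrogen limitation, and 1885.4, 2086.7 and 1869.9 against 665.8, 598.3 and 562 under carbon limitation. For both genes the strains lay far apart under either limitation. The interaction was -0.43 ± 0.25 for LEU1 (limma adjusted p = 0.237, 95% interval -0.95 to 0.09) and -0.04 ± 0.20 for LEU2 (adjusted p = 0.902, interval -0.46 to 0.38). The probe sets of LEU2 disagree: 2 dimmer ones gave -0.75 and -1.72, the second with a carbon-limited strain effect of 0.46.

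The aminotransferases that end the pathway went separate ways. BAT1, the mitochondrial enzyme, fell by 1.54 under nitrogen limitation and by 1.42 under carbon limitation, with an interaction of -0.13 ± 0.22 (limma adjusted p = 0.717, 95% interval -0.60 to 0.34). BAT2 encodes the cytosolic enzyme. It stood at 508.4, 404.1 and 416 in the nitrogen-limited reference and at 1040.2, 929.1 and 1188 in the deletion strain, against 620.2, 498.7 and 618.6 and then 684.2, 742.2 and 704.7 under carbon limitation. The deletion arrays were above the reference arrays under both limitations, by more under nitrogen limitation, but the carbon-limited strain effect did not pass. The interaction was 0.95 ± 0.21 (adjusted p = 0.00768). It did not pass without nitrogen-limited reference arrays 2 and 3 (0.74, adjusted p = 0.0847).

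ILV1, OAC1 and GDH1 did not pass in the interaction. ILV1, the threonine deaminase gene that starts isoleucine synthesis, had strain effects of 0.72 and 0.41 and an interaction of 0.31 ± 0.21 (limma adjusted p = 0.318, 95% interval -0.14 to 0.75). OAC1, a mitochondrial carrier that exports isopropylmalate and imports oxaloacetate, had strain effects of -0.60 and -1.21 and an interaction of 0.62 ± 0.24 (adjusted p = 0.0851). It passed after median centring (0.92) and without carbon-limited reference arrays 2 and 3 (0.90). GDH1, the NADPH-dependent glutamate dehydrogenase gene, had strain effects of -0.04 and -0.57 and an interaction of 0.53 ± 0.18 (adjusted p = 0.0573), and it passed after median centring (0.83) and with array weights (0.60).

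**Figure D2:**
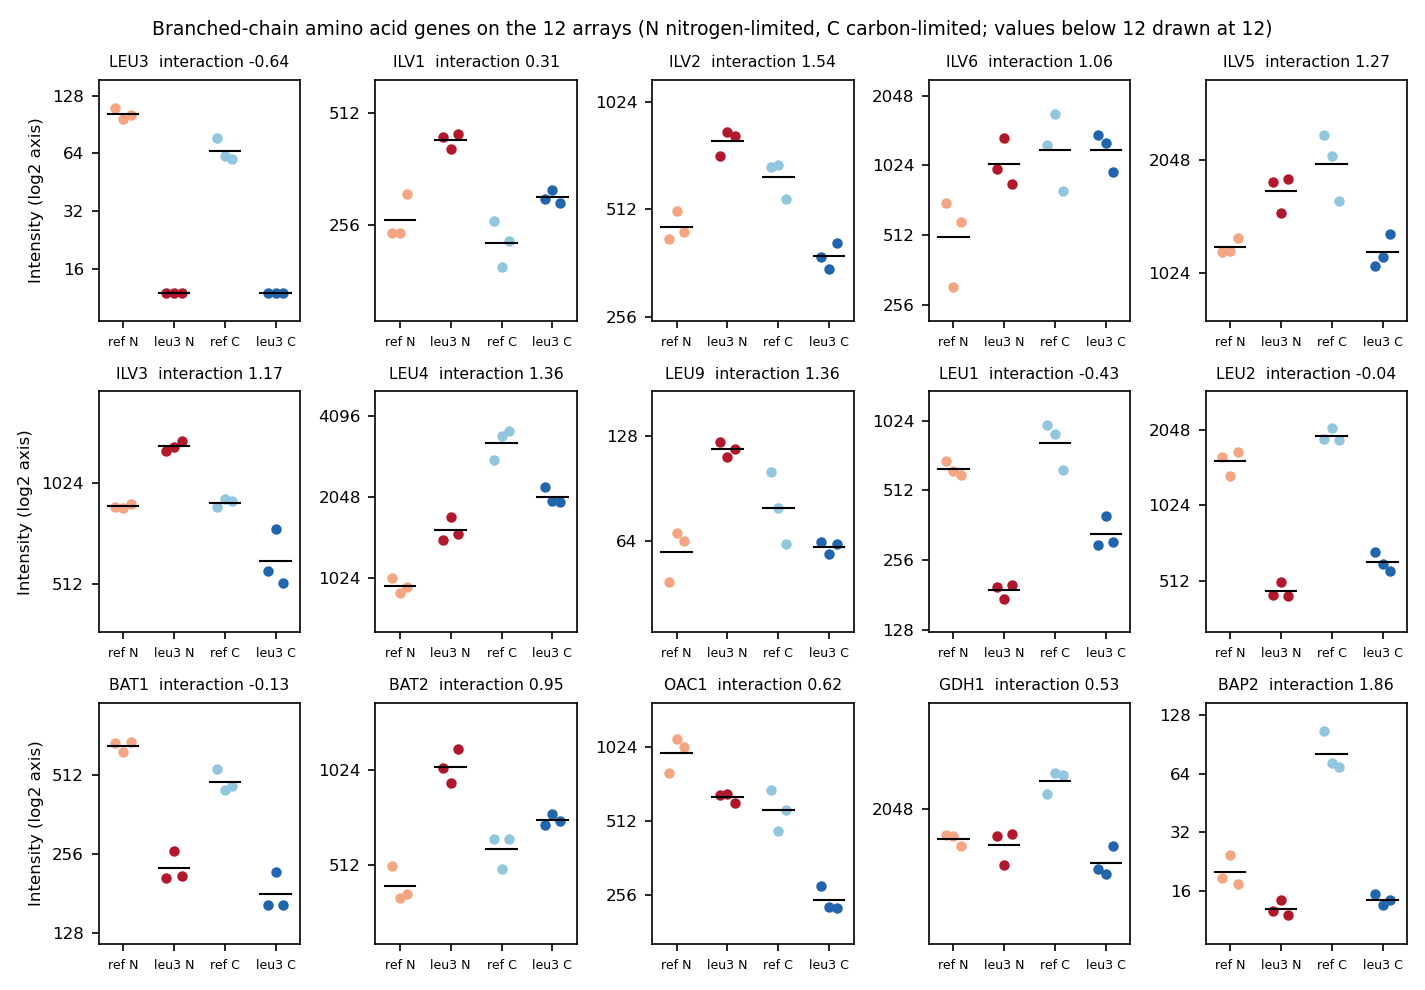
Probe set intensity (log axis) on each of the 12 arrays for genes of the branched-chain pathway and BAP2, 1 panel per gene, with N for nitrogen-limited and C for carbon-limited groups, values below 12 drawn at 12, and a line at each group's geometric mean. ILV2, ILV3, ILV5 and LEU4 are higher in the deletion strain under N and lower under C, while LEU1, LEU2 and BAT1 are lower in both.

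The cyclin gene PCL5 turned with the limitation as well. Pcl5 directs the kinase Pho85 to Gcn4 and so marks Gcn4 for degradation. Its signal was 286.6, 193.7 and 252.2 in the nitrogen-limited reference and 398.2, 423.8 and 418.6 in the deletion strain. Under carbon limitation it was 256.7, 187.9 and 273.3 in the reference and 65, 80.8 and 55.1 in the deletion strain. The reference was thus alike under both limitations, and the deletion strain stood above it in one and far below it in the other. The interaction was 2.61 ± 0.27 (limma adjusted p = 2e-05). GCN4 itself, given here for comparison after its values were seen, had strain effects of -0.05 and -0.19 and an interaction of 0.15 ± 0.18 (adjusted p = 0.606).

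Among 18 regulators of amino acid metabolism, 3 passed below 0, the deleted gene LEU3 among them, and none above 0. This share of 16.7% is near the 13.1% of all genes below 0. The median moved from -0.24 to 0.06 when arrays were centred. The count was 1 after centring and 1 without nitrogen-limited reference arrays 2 and 3. Besides LEU3 these were SSY5, the protease of the amino acid sensor at the plasma membrane, at -1.04 ± 0.20 (limma adjusted p = 0.00338), and ARG82, an inositol polyphosphate kinase needed for arginine control, at -0.91 ± 0.21 (adjusted p = 0.00995). ARG82 did not pass after centring (-0.60) or without nitrogen-limited reference arrays 2 and 3 (-0.89).

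Amino acid permease genes were divided. Of 17 tested, 4 passed above 0 and 8 below 0, with a median of -0.85. The count below 0 depended on the reference arrays: it was 3 without carbon-limited reference arrays 2 and 3 (median -0.21), 3 after median centring (median -0.54) and 2 with the actin ratio as a term.

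BAP2, a permease for branched-chain amino acids, led the values above 0. Its signal in the carbon-limited reference was 105.6, 72.5 and 69.2, against 15.5, 13.5 and 14.4 in the deletion strain. Under nitrogen limitation it was already low in the reference, at 18.7, 24.6 and 17.5, and stood at 12.7, 14.4 and 10 in the deletion strain. The deletion strain was below the reference in both, and the gap was larger under carbon limitation (-2.49) than under nitrogen limitation (-0.63). The interaction was 1.86 ± 0.25 (limma adjusted p = 3.05e-04), and the nearness of the nitrogen-limited values to the floor of 12 limits how large that strain effect could be.

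HIP1, the histidine permease, rose under both limitations. It stood at 35.1, 44.2 and 33.8 against 173.9, 185.3 and 188.9 under nitrogen limitation and at 111.4, 64.8 and 61.6 against 126.4, 124.2 and 124.3 under carbon limitation. The interaction was 1.58 ± 0.28 (limma adjusted p = 0.00195). AGP1, a broad permease for asparagine, glutamine and other amino acids, fell under nitrogen limitation alone (-1.02), with an interaction of -1.23 ± 0.26 (adjusted p = 0.00638) that did not pass with the actin term (-0.67) and was -0.69 without carbon-limited reference arrays 2 and 3. SAM3, the S-adenosylmethionine permease, passed at -1.31 ± 0.42 (adjusted p = 0.041), but it did not pass in 15 of the 24 settings and its 5 probe sets ranged from -2.20 to -0.12.

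Several other branches of amino acid biosynthesis also had interactions above 0. Arginine genes had 6 of 8 members above 0 and none below 0 (median 0.75), and 2 passed without carbon-limited reference arrays 2 and 3 or with the actin term. ARG8, the acetylornithine aminotransferase gene, rose under nitrogen limitation by 1.17, and its strain effect of -0.39 under carbon limitation did not pass. Its interaction was 1.56 ± 0.23 (limma adjusted p = 5.17e-04). ARG7, the ornithine acetyltransferase gene, rose under both limitations, by 2.00 and 0.50 (interaction 1.5 ± 0.24, adjusted p = 8.45e-04). ARG3, ornithine carbamoyltransferase, changed under carbon limitation alone (-0.85; interaction 0.99 ± 0.22). ORT1, the mitochondrial ornithine carrier, rose under both (1.42 and 0.58; interaction 0.84 ± 0.20). ARG3 and ORT1 did not pass with the actin term (0.74 and 0.60) or without carbon-limited reference arrays 2 and 3 (0.83 and 0.61), and ARG3 did not pass without nitrogen-limited reference arrays 2 and 3 (0.85).

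In lysine synthesis 4 of 8 genes passed above 0 and none below 0 (median 0.47). LYS20 and LYS21 encode the homocitrate synthases of the first step, yet they differed in form. LYS20 stood at 1010.6, 842.5 and 992.5 against 1687, 1836.3 and 1720.4 under nitrogen limitation, and its carbon-limited strain effect of -0.37 did not pass. LYS21 stood at 1026.6, 993.4 and 1030.3 against 1055.9, 975.6 and 1030.9 under nitrogen limitation and fell by 0.73 under carbon limitation. Their interactions were 1.26 ± 0.22 and 0.73 ± 0.19 (limma adjusted p = 0.00218 and 0.0148), and LYS21 did not pass without the carbon-limited (0.59) or the nitrogen-limited (0.72) pair of reference arrays or with the actin term (0.56). LYS1, saccharopine dehydrogenase, was at 1.27 ± 0.25 and passed in its strain effect under nitrogen limitation alone. LYS5, which activates the aminoadipate reductase, had opposite strain effects of 0.61 and -0.63 (interaction 1.24 ± 0.24, adjusted p = 0.00333).

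The aromatic branch had 4 members above 0 and 1 below 0 of 12 (median 0.38). ARO3 and ARO4 encode the DAHP synthases of the first step, and they moved together. ARO4 stood at 278.9, 315 and 284.8 against 863.7, 868.6 and 893.4 under nitrogen limitation and at 549.5, 574.1 and 419.1 against 590.8, 596 and 497.4 under carbon limitation. The strains were far apart in the first and overlapped in the second. Interactions were 1.45 ± 0.21 for ARO4 and 1.45 ± 0.19 for ARO3 (limma adjusted p = 4.68e-04 and 2.38e-04). TRP3 (1.07 ± 0.19) and ARO1 (0.81 ± 0.19) also passed above 0, and ARO1 did not pass without nitrogen-limited reference arrays 2 and 3 (0.77). The call below 0 was TRP1 at -0.78, named after its value was seen, and it was not made after quantile normalization or centring, with the actin term or without either pair of reference arrays.

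Of 11 genes of threonine, serine and asparagine synthesis, 5 passed above 0 and none below 0 (median 0.59), and 3 without nitrogen-limited reference arrays 2 and 3. HOM3, aspartate kinase, opens the route to threonine and methionine. It stood at 93.7, 98.1 and 112.1 against 355.3, 284.4 and 333.2 under nitrogen limitation, and at 240.4, 227.8 and 200.3 against 232.9, 290.7 and 233.6 under carbon limitation. Its interaction was 1.5 ± 0.21 (limma adjusted p = 3.99e-04). HOM2 (1.24 ± 0.18), the asparagine synthetase gene ASN2 (1.31 ± 0.23) and THR4 (0.81 ± 0.18) also changed under nitrogen limitation alone, and THR4 did not pass without nitrogen-limited reference arrays 2 and 3 (0.74). Sulfate and methionine genes had 3 of 21 above 0, a count that was 8 after centring, 7 without carbon-limited reference arrays 2 and 3 and 1 without the nitrogen-limited pair. Among them STR3, cystathionine beta-lyase, showed opposite strain effects (0.64 and -0.70; interaction 1.34 ± 0.23, adjusted p = 0.0017).

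Of 7 histidine genes tested, 6 rose under nitrogen limitation, against 6.05% of all genes, and 5 under carbon limitation, against 17.4%. None of the 7 passed in the interaction (limma), with values from -0.02 to 0.84 and a median of 0.09. At an unadjusted p under 0.05 there was 1, and 1 passed after median centring, with the actin term and without carbon-limited reference arrays 2 and 3.

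The Ehrlich pathway degrades amino acids to fusel alcohols by transamination, decarboxylation and reduction, and its genes held some of the largest interactions. Of 11 members, 4 passed above 0 and 3 below 0 (median 0.22), but 2 above 0 and none below 0 without nitrogen-limited reference arrays 2 and 3. ARO10, a phenylpyruvate and branched-chain 2-oxo acid decarboxylase, read 12, 7 and 11.9 in the nitrogen-limited reference, at the floor, and 70, 82.3 and 67.5 in the deletion strain. With carbon limiting, it read 117.9, 152.8 and 126.9 in the reference and 85, 101.8 and 90.5 in the deletion strain. The strains were apart under both limitations, in opposite order. The strain effects were 2.60 and -0.52, and the interaction was 3.12 ± 0.20 (limma adjusted p = 2.27e-07).

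ARO9, the aromatic aminotransferase of the same pathway, stood at 13.3, 25.3 and 20.1 against 111, 113.5 and 113.4 under nitrogen limitation. Under carbon limitation the strains overlapped, at 325.3, 280.4 and 391.7 and at 216.6, 335.7 and 252.8. Its interaction was 2.89 ± 0.31 (limma adjusted p = 3.18e-05). The pyruvate decarboxylase genes PDC6 and PDC5 went the other way. PDC6 fell by 1.82 under nitrogen limitation (interaction -1.29 ± 0.29, adjusted p = 0.00753), and PDC5 fell by 1.14 (interaction -1.04 ± 0.26, adjusted p = 0.0136). Without nitrogen-limited reference arrays 2 and 3, neither PDC6 (-1.21) nor PDC5 (-1.09) passed, and PDC5 did not pass after centring (-0.73), with the actin term (-1.0) or without carbon-limited reference arrays 2 and 3 (-1.0).

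Nitrogen catabolite repression keeps genes for poor nitrogen sources off while good ones last. Of 31 such genes, 11 passed above 0 and 7 below 0, and the median was 0.36. CAR1, arginase, stood at 120.2, 89.8 and 121.8 in the nitrogen-limited reference and at 505.1, 721.9 and 531.9 in the deletion strain. Under carbon limitation it stood at 188.2, 204.5 and 252.7 against 258.3, 238 and 257.1. The strains were far apart in the first and overlapped in the second, and the interaction was 2.17 ± 0.25 (limma adjusted p = 6.21e-05).

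The peptide transporter genes PTR2 and OPT2 fell under nitrogen limitation. PTR2 read 471.8, 500.8 and 541.3 in the reference and 130.8, 89.8 and 117.5 in the deletion strain, and between 20.9 and 34.7 on all carbon-limited arrays. OPT2 read 1508.6, 1475 and 1296.3 against 281.7, 340.3 and 448.4 under nitrogen limitation. It lay below 12 on all 6 carbon-limited arrays, so its interaction of -2.02 ± 0.22 (limma adjusted p = 4.51e-05) equals the nitrogen-limited strain effect. PTR2 had an interaction of -2.38 ± 0.26 (adjusted p = 4.56e-05). UGA4, a GABA permease, gave 2.15 ± 0.30 (adjusted p = 3.21e-04) with a carbon-limited strain effect of -0.70, but its 2 dimmer probe sets gave 0.00 and 0.56 there, so opposite strain effects are not shown by every probe set.

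The largest interactions above 0 were outside amino acid synthesis. QDR2, a plasma membrane transporter of drugs and cations, read 13.5, 13.8 and 12 in the nitrogen-limited reference and 497.6, 516.4 and 492.5 in the deletion strain. Under carbon limitation the 6 arrays of both strains lay between 36 and 46.2. The difference was therefore seen under nitrogen limitation alone, and the interaction was 5.26 ± 0.19 (limma adjusted p = 1.43e-10). SNO1 and SNZ1, neighbours on chromosome XIII that encode the subunits of the vitamin B6 synthase, followed. SNO1 read 12.6, 12.6 and 14.8 against 332.7, 453.3 and 336.9 under nitrogen limitation, and between 79.7 and 167.4 on the carbon-limited arrays of both strains (interaction 4.59 ± 0.31, adjusted p = 3.06e-07). SNZ1 rose under both limitations, by 3.58 and 1.07 (interaction 2.50 ± 0.19, adjusted p = 8.57e-07). They were the 2 calls among 4 vitamin B6 genes tested (median 1.19). The related genes SNZ2, SNZ3, SNO2 and SNO3 had no probe set of their own and were not tested.

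TMT1 encodes a methyltransferase that acts on trans-aconitate and on isopropylmalate, the Leu3 co-activator's isomer. Its signal was 36, 37.5 and 38.1 in the nitrogen-limited reference and 308.1, 338.8 and 312.4 in the deletion strain. With carbon limiting, it was 68.4, 60.3 and 53.9 against 76.9, 104.2 and 75.2. The deletion strain was above the reference in both, far more under nitrogen limitation, and the interaction was 2.62 ± 0.22 (limma adjusted p = 1.91e-06). ARO5 (YGL117W) rose under nitrogen limitation by 3.23, with a carbon-limited strain effect of 0.50 that did not pass (interaction 2.73 ± 0.27, adjusted p = 1.71e-05). FMP23, a mitochondrial protein, rose under nitrogen limitation by 2.72 and stood at -0.05 under carbon limitation (interaction 2.77 ± 0.27).

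Several of the largest values belonged to genes with opposite strain effects. YAR068W read 42.8, 48 and 35 against 229, 270.9 and 299.6 under nitrogen limitation and 1372.2, 1798.5 and 1570 against 1037.7, 781.2 and 970.8 under carbon limitation (interaction 3.44 ± 0.24, limma adjusted p = 3.37e-07). SPG4, the neighbour of ILV2 on chromosome XIII, read 9, 10.6 and 12 against 55, 62.5 and 62.4 and then 2361.3, 3625.2 and 3097.1 against 1491.9, 1669.3 and 1266.4 (interaction 3.34 ± 0.23). In both genes the deletion strain lay between the low nitrogen-limited and the high carbon-limited level of the reference. ATG41, an autophagy gene, showed opposite strain effects of 2.17 and -0.58 (interaction 2.74 ± 0.26, adjusted p = 9.82e-06). HPF1, a cell wall mannoprotein, owed its 3.08 ± 0.68 (adjusted p = 0.00708) to a fall of 2.68 under carbon limitation, and it did not pass without carbon-limited reference arrays 2 and 3 (2.67, adjusted p = 0.0804).

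**Figure D3:**
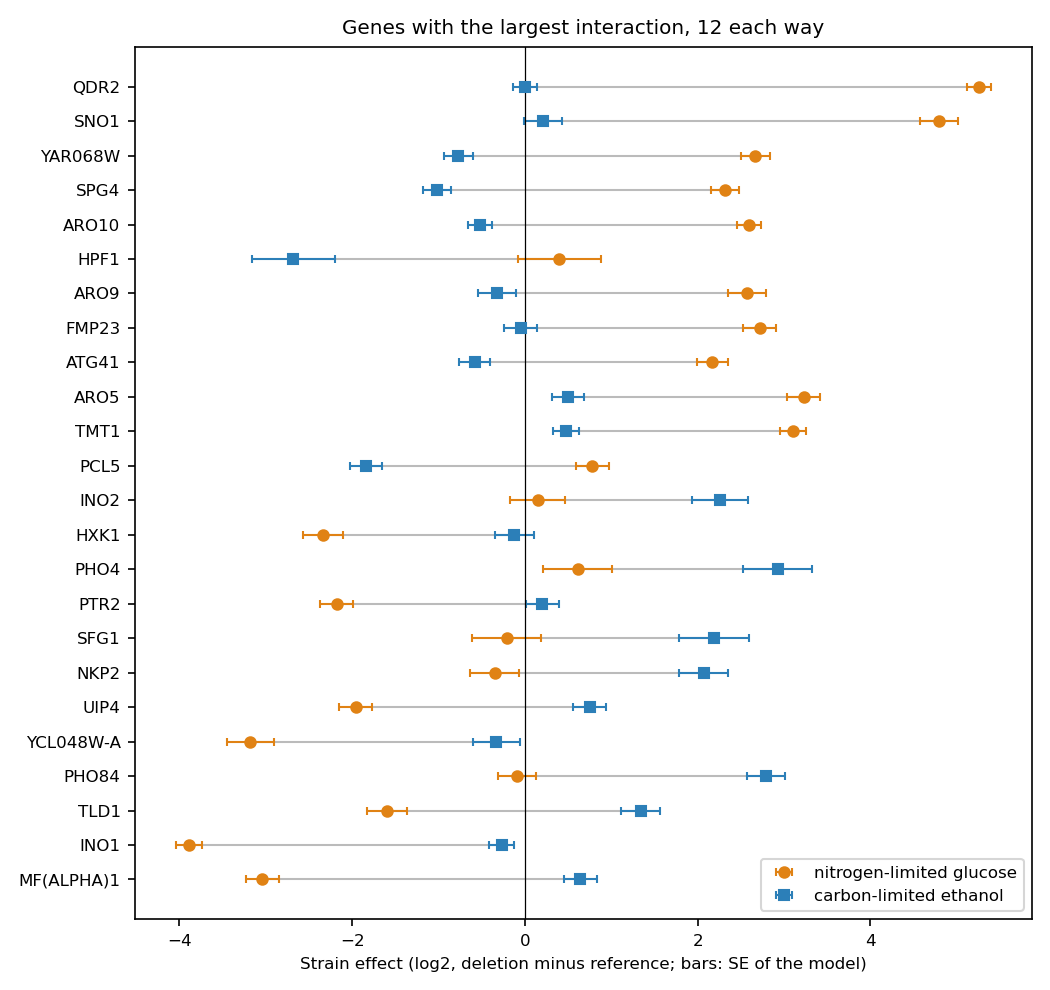
Strain effect (log2, deletion minus reference) under nitrogen limitation (circles) and under carbon limitation (squares), with standard errors of the model, for the 12 genes with the highest interaction and the 12 with the lowest by the naming rule. The length of each grey line is the interaction, and it is longest for QDR2, whose carbon-limited strain effect is 0.00.

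Inositol and phospholipid synthesis lay mainly below 0. Of 12 genes, 8 (66.7%) passed below 0 and none above 0, with a median of -0.80 that stayed below 0 after centring (-0.49, with 5 passing); 4 passed with the actin term and 4 without nitrogen-limited reference arrays 2 and 3. INO1 encodes inositol-3-phosphate synthase, which makes inositol for phosphatidylinositol. It stood at 243.4, 223.9 and 281.4 in the nitrogen-limited reference and at 17.6, 17.1 and 15.7 in the deletion strain. Under carbon limitation it stood at 932.2, 1326.4 and 1132.5 against 935.1, 906.1 and 939.9. The loss under nitrogen limitation had no counterpart of that size under carbon limitation, where the strain effect of -0.27 did not pass. The interaction was -3.62 ± 0.21 (limma adjusted p = 8.01e-08).

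The regulators of INO1 named here all passed below 0 with all 12 arrays, with strain effects of different form. INO2, a subunit of its activator, read 34.2, 56.2 and 41.6 against 43.2, 54.9 and 45.6 under nitrogen limitation and 34.4, 12 and 12.8 against 89.4, 61.9 and 104.3 under carbon limitation. Its interaction of -2.11 ± 0.46 (limma adjusted p = 0.0067) was -1.13 (adjusted p = 0.0703) without carbon-limited reference arrays 2 and 3, the lowest of the 12. It did not pass with the actin term (-1.08) or without nitrogen-limited reference arrays 2 and 3 (-1.78) either. OPI1, the repressor, had strain effects of -0.69 and 0.57, the second of which did not pass (interaction -1.26 ± 0.31, adjusted p = 0.0117), and it did not pass with the actin term (-1.01) or without nitrogen-limited reference arrays 2 and 3 (-1.1). INO4, a further regulator, is given after its values were seen. It had opposite strain effects of -0.44 and 0.44 (interaction -0.88 ± 0.18, limma adjusted p = 0.00481), which did not both pass with the actin term. The choline kinase gene CKI1 fell under nitrogen limitation by 0.85 (interaction -1.14 ± 0.22, adjusted p = 0.00364).

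Many storage carbohydrate genes fell under nitrogen limitation. Of 18 genes of trehalose and glycogen metabolism, 6 passed below 0 and none above 0, with a median of -0.74, and the values ran from -2.02 to -0.01. In the strain effects 14 fell under nitrogen limitation, against 16.1% of all genes, and 5 fell under carbon limitation, against 10.7%. The count below 0 was 4 after median centring (median -0.43) and 4 with the actin term (median -0.99). The median was -1.11 without nitrogen-limited reference arrays 2 and 3 and -1.01 without the carbon-limited pair. GPH1, glycogen phosphorylase, read 547.6, 368.2 and 379 against 42.2, 57 and 56.5 under nitrogen limitation and 79.7, 222.8 and 262.3 against 71.2, 108.8 and 70.9 under carbon limitation. The deletion strain was lower in both, though the strains overlapped under carbon limitation through reference array 1. Its interaction was -2.02 ± 0.48 (limma adjusted p = 0.0107) and became -3.08 without carbon-limited reference arrays 2 and 3. NTH2, a neutral trehalase paralogue, had opposite strain effects of -0.69 and 0.79 (interaction -1.48 ± 0.20, adjusted p = 2.78e-04). GLC3, the glycogen branching enzyme, was at -1.35 ± 0.36 and did not pass after centring (-1.04). GAC1, a phosphatase subunit for glycogen synthase, was at -1.28 ± 0.31 and did not pass with the actin term (-0.68) or without carbon-limited reference arrays 2 and 3 (-0.78).

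Of 14 general stress genes, 5 passed below 0 and none above 0 (median -0.49, and 2 each way after centring with a median of -0.19), and 3 passed below 0 without nitrogen-limited reference arrays 2 and 3. HSP26, a small heat shock protein, stood at 238.2, 191.1 and 238.6 against 81.1, 80 and 67.8 under nitrogen limitation, and between 1121.4 and 1371.7 on all carbon-limited arrays. Its interaction was -1.42 ± 0.20 (limma adjusted p = 4.43e-04). YGP1, a secreted glycoprotein induced on starvation, was at -1.36 ± 0.31 (adjusted p = 0.00852), and it did not pass without nitrogen-limited reference arrays 2 and 3 (-1.27).

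Peroxisomal beta-oxidation had 7 of 16 genes below 0 and none above 0 (median -0.60; 2 below and 1 above after centring, median -0.30). There were 4 below with the actin term, and 3 below and 1 above without nitrogen-limited reference arrays 2 and 3. POT1, the thiolase of the last step, read 64.2, 71 and 60.6 against 18, 23.1 and 18.4 under nitrogen limitation. On ethanol it was far higher and the strains overlapped, at 1022.9, 1578.4 and 1086.2 against 1189.7, 1428.9 and 1568.7. Its interaction was -1.93 ± 0.25 (limma adjusted p = 2.73e-04), and that of SPS19, a dienoyl-CoA reductase for unsaturated fatty acids, was -1.34 ± 0.20 (adjusted p = 6.08e-04).

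Hexose transporter and sensor genes were divided, with 2 of 13 above 0 and 6 below 0 (median -0.55). The count below 0 was 1 with the actin term, 3 after centring and 4 without nitrogen-limited reference arrays 2 and 3. HXT2 and HXT1 rose under nitrogen limitation. HXT2, a high-affinity transporter, stood at 111.7, 95.4 and 69.1 against 279.2, 294.6 and 368 there (interaction 2.12 ± 0.31, limma adjusted p = 4.64e-04). HXT1, a low-affinity transporter, stood at 300.9, 316.8 and 321.6 against 762, 835.9 and 675.5, and lay between 6.7 and 12.1 on the carbon-limited arrays (interaction 1.27 ± 0.18, adjusted p = 3.99e-04). HXT6, whose near-identical copy HXT7 can share its signal, fell by 1.1 under nitrogen limitation (interaction -1.65 ± 0.32, adjusted p = 0.0038), and did not pass with the actin term (-0.95, adjusted p = 0.051) and was -0.93 without carbon-limited reference arrays 2 and 3. The hexokinase gene HXK1, in the glycolysis list, stood at 803.1, 366.8 and 458.8 against 94.4, 114.6 and 95.4 under nitrogen limitation and overlapped under carbon limitation (interaction -2.23 ± 0.32, adjusted p = 4.71e-04). The other 19 glycolysis and fermentation genes tested included 1 call, TDH3, above 0 (0.77 ± 0.22), which did not pass in 8 of the 24 alternative settings.

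In the pheromone response list 5 of 14 genes passed below 0, 1 above 0 and 8 did not pass (median -0.78, and -0.47 after centring). The count below 0 was 3 with the actin term or without nitrogen-limited reference arrays 2 and 3. FUS1, needed for cell fusion, read 66.7, 61.4 and 97 against 32.8, 28.9 and 30.4 under nitrogen limitation and 19.2, 26.3 and 16.9 against 32.7, 34.5 and 23.3 under carbon limitation (interaction -1.80 ± 0.29, limma adjusted p = 0.00115). The strains were apart under nitrogen limitation and overlapped under carbon limitation. AGA1, the anchor subunit of a-agglutinin, gave -1.70 ± 0.26 (adjusted p = 6.4e-04). Of the a-cell specific genes 1 of 7 passed, BAR1 at -0.96 ± 0.25 (adjusted p = 0.0181), which did not pass after centring (-0.65) or without nitrogen-limited reference arrays 2 and 3 (-0.72).

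MF(ALPHA)1 encodes the pheromone of alpha cells and had the lowest interaction named here although both strains are labelled MATa. It read 270, 289.9 and 356.6 in the nitrogen-limited reference and 47.4, 36.7 and 28.8 in the deletion strain. With carbon limiting, it read 25.8, 17.9 and 21.7 in the reference and 34.9, 32 and 34.2 in the deletion strain. The 3 nitrogen-limited reference arrays stood far above the other 9, and the order of the strains turned under carbon limitation. The interaction was -3.68 ± 0.27 (limma adjusted p = 4.26e-07). In bulk RNA, fewer cells of a kind and less RNA per cell cannot be told apart. Of the other alpha-cell genes tested, STE3 fell under both limitations (-0.73 and -0.43), the first against deletion arrays that were all set to the floor of 12, so that its size is a lower bound. SAG1 fell under carbon limitation (-0.74) with a nitrogen-limited strain effect of -0.41 that did not pass. Their interactions of -0.30 and 0.33 did not pass. UIP4, the neighbour of MF(ALPHA)1 on chromosome XVI, had opposite strain effects of -1.96 and 0.75 (interaction -2.71 ± 0.27, adjusted p = 1.5e-05).

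PHO84, the high-affinity phosphate transporter, changed under carbon limitation alone. It read 11.3, 11.9 and 13.7 in the carbon-limited reference and 89, 62.4 and 116.5 in the deletion strain, and between 14.1 and 23.7 on all nitrogen-limited arrays. Its interaction was -2.87 ± 0.32 (limma adjusted p = 4.51e-05). Of 11 phosphate starvation genes 3 passed (27.3%), all below 0 (median -0.47), where 13.1% of all genes passed below 0. The count was 2 after quantile normalization, after centring and with the actin term. PHO4, the activator of that response, gave -2.32 ± 0.56 (adjusted p = 0.0115) but varied from 17 to 74.7 between carbon-limited reference arrays, and it did not pass with the actin term (-1.70, adjusted p = 0.131) or without nitrogen-limited reference arrays 2 and 3 (-1.92). SFG1, a transcription factor of surface growth, gave -2.40 ± 0.57 and did not pass without carbon-limited reference arrays 2 and 3 (-1.1), without nitrogen-limited reference arrays 2 and 3 (-2.27) or with the actin term (-0.87).

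Iron and copper uptake had 3 of 17 genes below 0 (17.6%, near the 13.1% of all genes) and a median of -0.44. The count below 0 was 2 after quantile normalization and with the actin term. After centring it was 2, with 1 above 0. SIT1, a siderophore transporter, stood at 189.6, 178.5 and 187.7 against 62.4, 55.1 and 42.3 under nitrogen limitation and overlapped under carbon limitation (interaction -2.08 ± 0.25, limma adjusted p = 1.26e-04). CTR3, a copper transporter, fell by 1.43 under nitrogen limitation (interaction -1.22 ± 0.23, adjusted p = 0.00345). TLD1, a lipid droplet protein, had opposite strain effects of -1.60 and 1.34 (interaction -2.94 ± 0.32, adjusted p = 4.51e-05). DIC1, the mitochondrial dicarboxylate carrier, also had opposite effects, of -1.27 and 0.51 (interaction -1.78 ± 0.21, adjusted p = 6.75e-05).

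Ribosomal protein genes stood above the median of all genes. Of 75 genes, 23 passed above 0 and none below 0, with a median of 0.51, against -0.20. In the strain effects 21 fell and 2 rose under carbon limitation, where 10.7% of all genes fell and 17.4% rose. Under nitrogen limitation 9 rose and 1 fell, where 6.05% of all genes rose and 16.1% fell. The count was sensitive to the arrays and the scaling: 8 passed without carbon-limited reference arrays 2 and 3, 10 without nitrogen-limited reference arrays 2 and 3, 6 with the actin term, 8 above 0 and 1 below 0 after quantile normalization, and 50 after median centring. RPL16B passed in all 24 settings. It stood at 1783, 2249.6 and 2190 against 1048.4, 959.6 and 1079.7 under carbon limitation, while the strains overlapped under nitrogen limitation (interaction 1.14 ± 0.20, limma adjusted p = 0.00185). Many ribosomal proteins have a near-identical paralogue, and their probe sets can share signal. Mitochondrial ribosome genes had 4 of 56 below 0 and none above 0. This share of 7.1% is under the 13.1% of all genes below 0. Their median moved from -0.14 to 0.17 when arrays were centred, with 3 above 0 and none below 0. With the actin term 1 passed below 0.

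On the deposited scale, 18.3% of all genes passed in either direction. The share was 13.6% in gluconeogenesis, glyoxylate and C2 metabolism, 17.6% in the TCA cycle and 7.4% in the respiratory chain. In gluconeogenesis, glyoxylate and C2 metabolism 2 of 22 genes passed above 0 and 1 below 0, but 7 passed above 0 and none below 0 after centring, and 2 above 0 and 5 below 0 after quantile normalization. SIP4, an activator of gluconeogenic genes, fell under carbon limitation by 1.0 and lay below 12 on all but 1 of the nitrogen-limited arrays (interaction 1.07 ± 0.21, limma adjusted p = 0.00357). YAT2, a carnitine acetyltransferase, rose under nitrogen limitation by 1.03 (interaction 1.34 ± 0.22). The TCA cycle had 1 of 17 above 0 and 2 below 0, with aconitase, ACO1, showing opposite strain effects (-0.53 and 0.54; interaction -1.06 ± 0.20, adjusted p = 0.00333), and 5 passed below 0 after quantile normalization. The respiratory chain had 1 above 0 and 1 below 0 of 27. Purine and one-carbon synthesis had 3 of 13 below 0 (23.1%), and fatty acid synthesis had 1 of 10 each way (20.0% in all). Vacuolar proteases had 1 of 9 above 0 (11.1%), and cell wall mannoproteins 4 of 16 above 0 and 3 below 0 (43.8% in all). No purine gene passed after centring, with the actin term or without nitrogen-limited reference arrays 2 and 3, and without carbon-limited reference arrays 2 and 3 the vacuolar proteases had none above 0 and 1 below 0 and the mannoproteins none above 0 and 2 below 0. No gene of ergosterol synthesis (22 tested) or ribosome biogenesis (24 tested) passed in the limma interaction, while 1 and 1 of them had an unadjusted p under 0.05, and 2 and 1 passed after median centring.

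**Figure D4:**
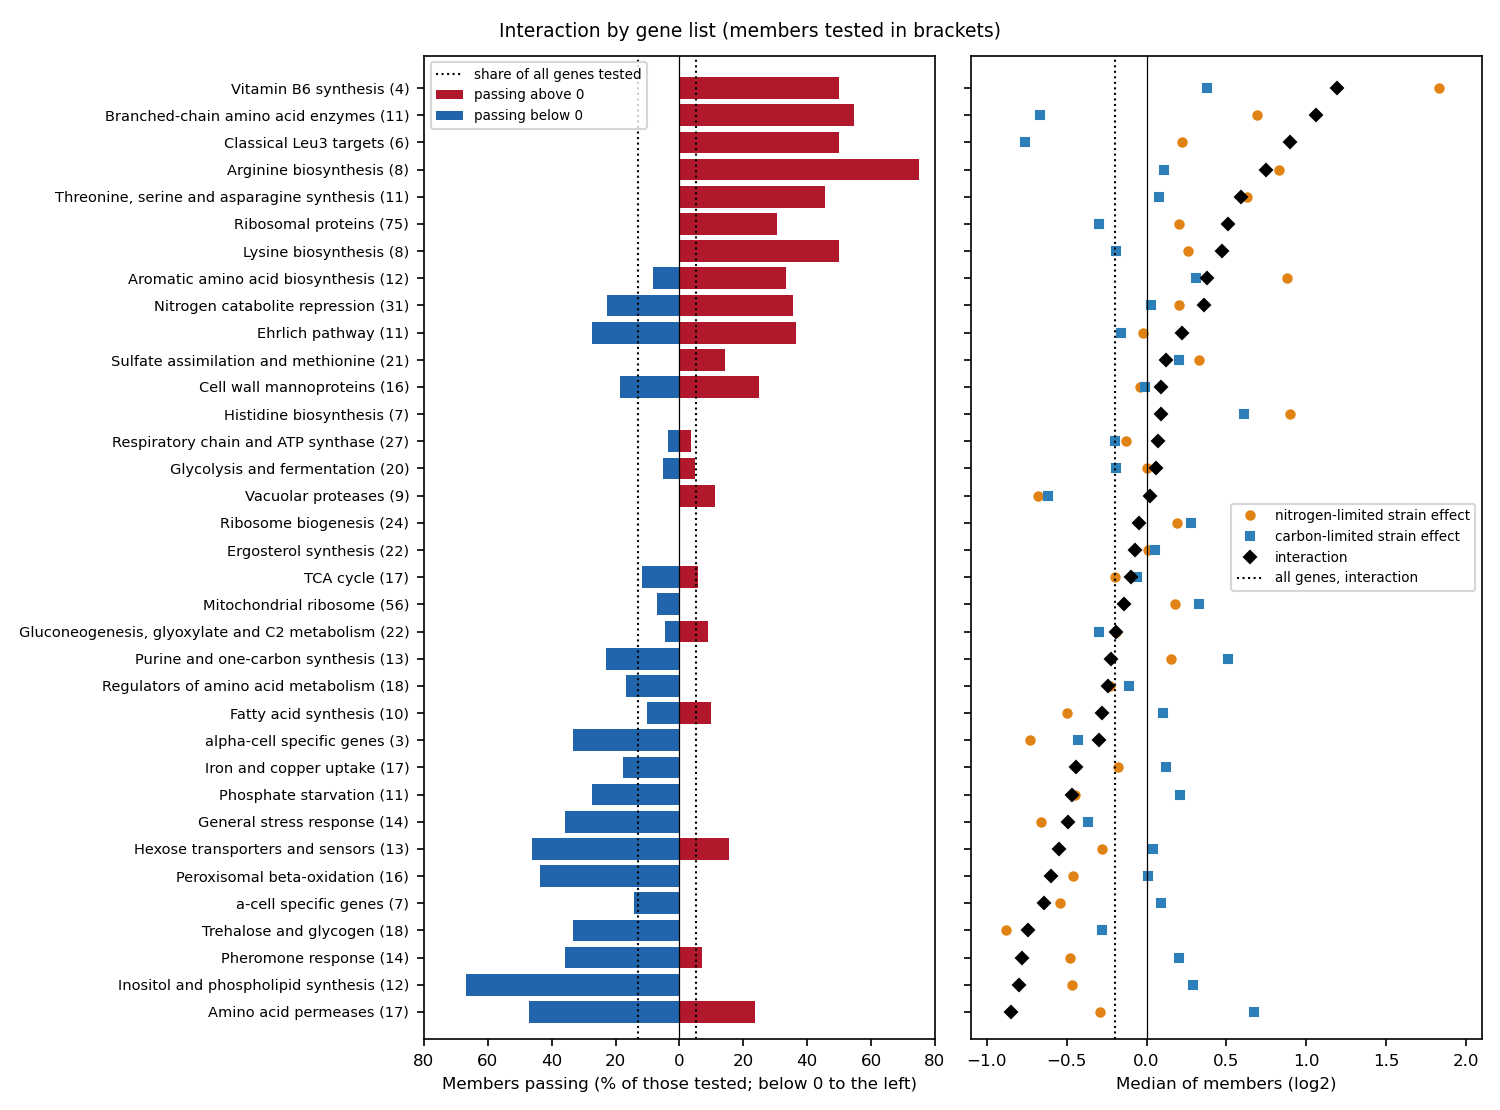
Left, the share of tested members of each gene list (percent) that passed in the interaction above 0 (red, to the right) or below 0 (blue, to the left), with dotted lines at the shares of all genes, 5.24% and 13.1%. Right, the median over members of the strain effect under each limitation and of the interaction (log2), with a dotted line at the all-gene median of -0.20.

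For 84 genes the strain effect passed in both limitations with opposite signs. Of these, 26 had an interaction above 0 (0.489%) and 58 below 0 (1.09%), and the median absolute interaction was 1.34. They came from the 367 genes that passed in both strain effects, of which 283 changed in the same direction and 256 did not pass in the interaction. Beside 4 branched-chain genes (ILV2, ILV3, ILV5 and LEU4), those above 0 included PCL5, ARO10, LYS5, STR3 and UGA4. Those below 0 included MF(ALPHA)1, UIP4, TLD1, DIC1, NTH2, ACO1 and YIR042C. With the actin ratio as a term 4 genes kept opposite strain effects past both thresholds, and all 4 were among the 84: PCL5, STR3, the mitochondrial isocitrate dehydrogenase gene IDP1 and PCD1. The last 2, named after their values were seen, had interactions of 2.30 ± 0.22 and -1.73 ± 0.23 (limma adjusted p = 9.82e-06 and 2.38e-04). Without carbon-limited reference arrays 2 and 3 there were 32 such genes, of which 20 were among the 84.

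The 27 genes with strain effects of the same sign comprised 15 higher and 12 lower in the deletion strain. The effect was larger under nitrogen limitation for 17 of them, among them SNZ1, TMT1, HIP1, GPH1 and LEU3, and larger under carbon limitation for 10, among them BAP2.

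**Figure D5:**
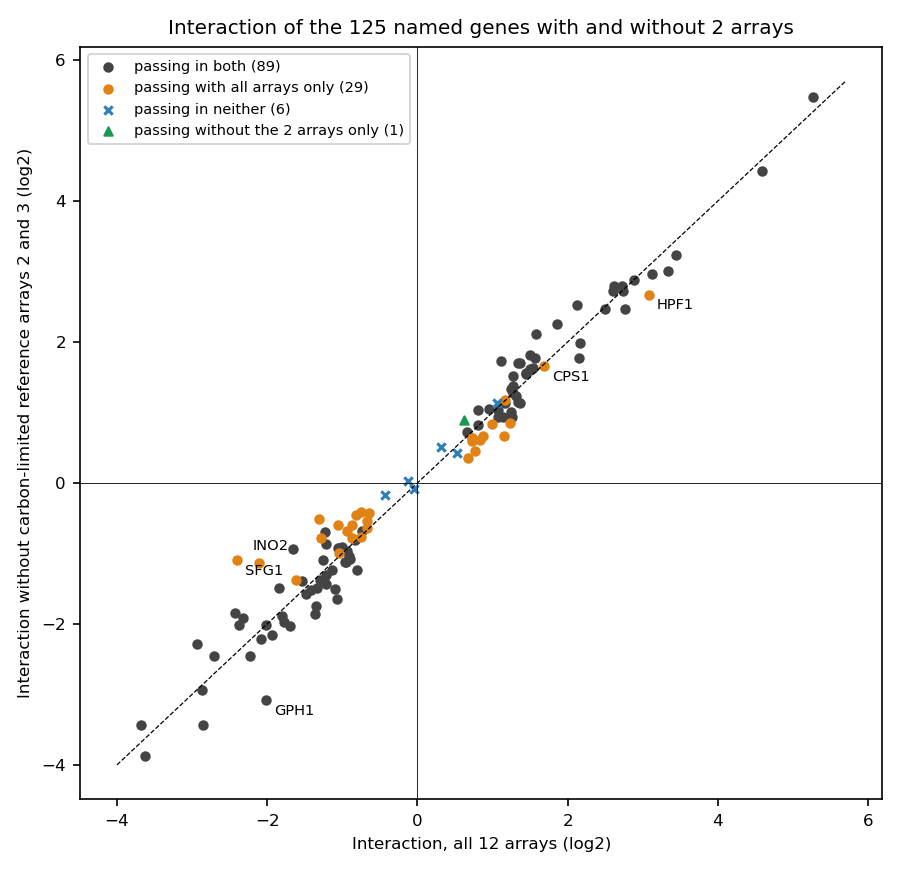
Interaction (log2) of the genes named here with all 12 arrays, on the horizontal axis, against the interaction without carbon-limited reference arrays 2 and 3, on the vertical axis, with the line of equality. Most points lie near the line, while SFG1 and INO2 lie closer to 0 and lose the call without those arrays.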

How the data were processed

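Probe set intensities from 12 single-colour yeast arrays, 3 per group, were used as the authors deposited them. Every array had a trimmed mean near 150.1 with 2% left out at each end. The upstream software is not given in the sources used here. Of 9335 probe sets, 6504 were assigned to 1 gene, 328 to several and 2503 to none; all 6504 were matched to RefSeq symbols through gene identifiers, giving 5656 genes. Where a gene had several probe sets (315 genes), the one with the highest mean was used. Intensities below 12 were set to 12, log2 was taken, and genes above 12 on at least 3 arrays were kept, leaving 5321. A model of 4 group means with 8 residual degrees of freedom was fitted with limma 3.58.1 in R 4.3.3 (lmFit, eBayes), with Benjamini-Hochberg adjustment over all 5321 genes and a threshold of 0.05. The fit was also run on simulated data in which each gene had the same spread in all groups. That run cannot show how the fit handles the unequal spread and signal ratios of these arrays. A strain effect and its interaction are differences of log2 values, so the number of arrays limits the precision.

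Genes were named by a rule: LEU3, the classical targets, the branched-chain enzymes, OAC1 and BAP2; the 12 largest interactions each way among calls whose strains did not overlap under at least 1 limitation; the 5 largest each way among genes with opposite strain effects; the 5 largest with effects of the same sign; and up to 4 largest calls of each gene list. Exceptions are stated as chosen after their values were seen. The members, lists and rule were chosen with earlier results of these data known. Alternatives were a floor of 30, a pseudocount of 32 without a floor, no filter, quantile normalization, median centring, the mean of probe sets, the replicate number as a block, the actin ratio as a term, array weights, a trended robust fit, and fits without single arrays or either pair of reference arrays.

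Same-numbered arrays of different groups did not deviate together: correlations of their deviations ran from -0.31 to 0.133 over 18 pairs, so the replicate numbers were not taken to pair the samples. Probe sets with several genes or none were not named.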

Additional observations from a re-analysis of the deposited data

Results flagged for a closer look

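In 976 genes the strain effect differed between the limitations by the test of that difference, and in 84 of them both strain effects passed with opposite signs. The largest interactions among those 84 were 3.44 for YAR068W, 3.34 for SPG4, 3.12 for ARO10, 2.74 for ATG41 and 2.61 for PCL5 above 0. Below 0 they were -3.68 for MF(ALPHA)1, -2.94 for TLD1, -2.71 for UIP4, -1.84 for YIR042C and -1.78 for DIC1.

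Control probe sets outside the comparison gave signal on nitrogen-limited reference arrays 2 and 3. ThrX-3 read 3094.8 and 2747.7 there, LysX-3 read 118.0 and 60.8, and PheX-3 read 112.8 and 63.2. Among probe sets assigned to no gene or to several, 307 of 1336 tested passed in the interaction.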

How the results depend on the processing

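Of 118 named genes that passed, 62 passed in all 24 alternative settings and 56 were lost in at least 1. The 976 calls became 417 with the actin ratio as a term, 1465 with array weights, 634 without arrays 2 and 3 of the carbon-limited reference, and 504 without arrays 2 and 3 of the nitrogen-limited one. The 279 above 0 became 614 after centring, 148 with the actin term and 152 without the nitrogen-limited pair. The 697 below 0 became 241 after centring, 269 with the actin term, 1075 with weights, 433 without the carbon-limited pair and 352 without the nitrogen-limited pair. Opposite effects (84) became 4, 176, 32 and 42 with the actin term, with weights and without the carbon-limited or nitrogen-limited pair, and effects of the same sign (27) became 4, 73, 12 and 14. Nitrogen alone (354) became 585 with weights and 224 without the nitrogen-limited pair. Carbon alone (441) became 22 with the actin term, 103 without the carbon-limited pair and 195 without the nitrogen-limited pair. Leaving out single arrays gave 653 to 1411 calls, 200 to 390 above 0, 443 to 1021 below 0, 47 to 120 opposite, 12 to 66 of the same sign, 237 to 430 for nitrogen alone and 274 to 746 for carbon alone; the 1411 came without carbon-limited reference array 1. The calls shared with the 976 numbered 346 with the actin term, 502 without the carbon-limited pair, 440 without the nitrogen-limited pair and 520 after centring. The replicate block, although the numbers did not pair the samples, left 857 calls (251 above 0, 606 below 0), 59 opposite, 21 of the same sign, 310 for nitrogen alone and 398 for carbon alone. Interactions that did not pass turned sign for BAT1 after centring (0.18), with the actin term (0.04), without carbon-limited deletion array 2 (0.01) and without the carbon-limited pair (0.03), and for LEU2 after centring (0.27), without carbon-limited deletion array 1 (0.03) and without nitrogen-limited reference array 3 (0.02). Over fits without single arrays BAT1 ran from -0.24 to 0.01 and LEU2 from -0.13 to 0.03. The cause was not tested. Signals near 12 bound the fold that can be seen, and 7 called genes lay below it on all carbon-limited arrays and 7 on all nitrogen-limited arrays.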

Other observations

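Several calls were neighbours on a chromosome, as picked out after their values were seen. With 18.3% of all genes called, some neighbouring calls will occur anyway, and their share over all genes was not computed. ILV2 and SPG4 on chromosome XIII both had opposite strain effects of the same sign pattern, with interactions of 1.54 and 3.34. MF(ALPHA)1 and UIP4 on chromosome XVI did so at -3.68 and -2.71, and NRK1 and TEP1 on chromosome XIV at -1.61 and -0.99. SIP4 and ARG3 on chromosome X both fell under carbon limitation alone, with interactions of 1.07 and 0.99. Neighbours also went apart: HMS2 stood at -1.42 beside BAT2 at 0.95 on chromosome X, and FLO11 at -1.07 beside YIR018C-A at 1.77 on chromosome IX.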
